A study of Homo sapiens with 18 samples.

Results

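The AP-1 factor genes examined here were FOS, FOSB, FOSL1, FOSL2, JUN, JUNB, JUND, ATF3, BATF3 and MAFF, 10 genes in all. Their members in the data were the ATAC-seq windows that touch the annotated span of a gene extended by 20 kb on each side (GENCODE release 44 mapped to GRCh37, the hg19 assembly). The tiling grid has 613 windows in these spans, and 120 of them are among the 89428 windows of the deposited table. The table holds windows above 2 FPKM in at least 2 of 18 libraries, so a member window with signal in 1 line alone had to differ between lines in order to be listed.

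AP-1 is a dimer of basic leucine zipper proteins that binds DNA at the sequence TGACTCA. FOS and JUN proteins pair with each other, JUN proteins also pair among themselves, and ATF, BATF and small MAF proteins join the network with other partners and site preferences. Many of these genes are immediate early genes, transcribed within minutes of serum, growth factor or stress signals, and AP-1 is known in epithelial cancers for its role in proliferation, invasion and the response to DNA damage.

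ATAC-seq, which reads open chromatin through insertions of the Tn5 transposase, had been run in triplicate on 6 established ovarian cancer lines of human origin, which form 3 pairs. A2780 is a platinum-sensitive line labelled as endometrial or ovarian, and CP70 is its resistant derivative, selected in culture. PEA1 (sensitive) and PEA2 (resistant) came from ascites of 1 person with high-grade serous ovarian cancer, and PEO1 (sensitive) and PEO4 (resistant) from another. No line was treated before the assay, and all lines were grown in RPMI-1640 with glutamine and 10% fetal bovine serum. Each pair is therefore 1 sensitive and 1 resistant line, and differences between lines of a pair cannot be told apart from drift in culture or between tumour samplings. The labels do not say whether replicates were separate cultures, so p-values measure the spread between libraries, which may be technical.

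Library totals recovered from the values ranged from 8963079 to 60435027 reads, and the median window held 11 to 47 reads per library. The share of reads in the 89428 windows was lowest in A2780, 9.26% ± 0.832 (SD, n = 3), and highest in PEO1, 39.9% ± 0.949. FPKM scales a window to the whole library, so the median of all windows moved by a log2 change of 0.59 in CP70 against A2780, 0.31 in PEA2 against PEA1 and -0.30 in PEO4 against PEO1. Changes are therefore also given relative to these medians, and after removing the median of each 5 Mb bin or of each GC class. Defining markers of leukocytes, fibroblasts and endothelium (PTPRC, CD3E, COL1A1 and PECAM1) were not analysed here. Start windows of 6 epithelial markers (PAX8, WT1, EPCAM, KRT8, KRT18 and CDH1) summed to 50.6 to 63.4 FPKM in the PEO libraries, 10.7 to 15.3 FPKM in the PEA libraries and 4.38 to 8.98 FPKM in the A2780 and CP70 libraries.

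Of the 120 member windows, 19 were promoter windows, 16 were promoters of neighbouring genes, 19 lay in gene bodies and 66 in flanks. A promoter window has its centre from 1 kb upstream to 100 bp downstream of a start of the gene or holds its canonical start, and each gene had 1 start window, the one holding the canonical start. The 7 base AP-1 site TGACTCA, searched on both strands, was in 23 of the 120 windows (19.2%) against 28.4% of all windows, and in 2 of the 19 promoter windows (10.5%) against 10.6% of all promoter windows. The cyclic AMP response element (CRE) TGACGTCA was in 3 of 19 promoter windows (15.8%) against 3.1%. The CArG box, the site of serum response factor, was in 2 of 19 (10.5%) against 3.85%. These shares are descriptions of letters in windows, not of bound sites.

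Stretches with such a site from the windows described below are shown first, because the start, gene body and flank values refer back to them. Each is read from the GRCh37 genome on the strand of its gene, 5′ to 3′, with the site in capitals. The FOSL1, FOSL2 and MAFF stretches at the start are kept to at most 30 bases. The sites at the start of FOSL1 and FOSL2 and in the first 1 kb of FOSL1 are AP-1 sites, on chr11:65667843-65667871 (minus strand), chr2:28615718-28615746 (plus strand) and chr11:65666797-65666923 (minus strand).
FOSL1 start: cacggcgcgggTGAGTCAgaacccagcag
FOSL2 start: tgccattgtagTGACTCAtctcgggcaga
FOSL1 intron: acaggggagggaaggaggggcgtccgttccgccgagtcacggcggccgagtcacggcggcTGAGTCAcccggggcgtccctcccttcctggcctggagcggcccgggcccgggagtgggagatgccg

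The promoter of FOS (chr14:75745157-75745286, plus strand) holds a CArG box 310 bases upstream of the start, and a flank window of FOS (chr14:75766374-75766503, plus strand) holds another 20907 bases downstream. JUNB has a CArG box 1534 bases upstream (chr19:12900702-12900831, plus strand).
FOS promoter: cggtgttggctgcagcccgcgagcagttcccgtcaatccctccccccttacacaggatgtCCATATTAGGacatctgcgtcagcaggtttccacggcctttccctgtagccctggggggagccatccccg
FOS flank: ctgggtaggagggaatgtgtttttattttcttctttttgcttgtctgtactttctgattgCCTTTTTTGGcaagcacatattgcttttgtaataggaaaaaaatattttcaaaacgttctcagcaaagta
JUNB upstream: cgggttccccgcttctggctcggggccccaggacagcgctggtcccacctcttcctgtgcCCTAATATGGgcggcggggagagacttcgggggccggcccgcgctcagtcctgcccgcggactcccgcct

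JUND (chr19:18392565-18392692, minus strand) and MAFF (chr22:38597936-38597965, plus strand) hold a CRE 196 and 51 bases upstream of their starts. A window within the JUN span (chr1:59245774-59245900, minus strand) and a flank window of BATF3 (chr1:212845097-212845223, minus strand) hold AP-1 sites 3882 and 28022 bases downstream of the starts.
JUND promoter: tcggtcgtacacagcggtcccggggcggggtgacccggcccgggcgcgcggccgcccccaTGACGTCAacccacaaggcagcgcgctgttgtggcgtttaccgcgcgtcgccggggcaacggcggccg
MAFF promoter: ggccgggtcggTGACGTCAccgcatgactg
JUN downstream: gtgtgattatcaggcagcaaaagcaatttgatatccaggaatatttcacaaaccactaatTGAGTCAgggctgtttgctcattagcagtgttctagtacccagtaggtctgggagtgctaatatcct
BATF3 flank: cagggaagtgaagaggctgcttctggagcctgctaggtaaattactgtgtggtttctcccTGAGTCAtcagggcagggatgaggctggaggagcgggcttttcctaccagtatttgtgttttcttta

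The first question was how open the start of each gene was in each of the 6 lines. A PEO line had the highest mean at 9 of the 10 start windows, and the exception was BATF3, where CP70 was highest and PEO1 lowest. That count was 7 after centring each library on its median window, 8 after removing 5 Mb bin medians and 8 after removing GC class medians. The median over all windows that hold a gene start was also highest in the PEO lines, at 7.30 FPKM in PEO1 and 7.20 FPKM in PEO4. It was 2.04 to 3.19 FPKM in the other lines. The share of all gene starts with a PEO line highest was not counted, so these counts do not set the factors apart. Over all lines the means differed at 119 of 120 member windows (limma F test, adjusted p under 0.05), where 99.6% of all windows tested passed, so this count sets the member windows apart in no way. Within bulk libraries, fewer cells with an open window and less signal per cell cannot be told apart. On the deposited scale FOSL1 had the largest range, 3.86 on the log2 scale between the line means of A2780 and PEO1, followed by FOSB with 3.63 and JUND with 3.38. ATF3 had the smallest, 1.29. This ranking depended on the scaling, since after median centring or with GC class medians removed FOSB had the largest range and MAFF the smallest, and with bin medians removed FOSL1 had the largest and JUNB the smallest.

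The order of the line means was not the same for each gene, and neighbours in it were compared in 1 limma fit over all 18 libraries. For FOSB it was PEO4, PEO1, PEA1, CP70, A2780 and PEA2, where PEO1 did not differ from PEA1, nor A2780 from PEA2. For FOSL1 it was PEO1, PEO4, CP70, PEA1, PEA2 and A2780, and PEO1 did not differ from PEO4, nor CP70 from PEA1. JUN, JUNB and JUND shared the order PEO4, PEO1, PEA1 and CP70 at the top, and PEA1 did not differ from CP70 for any of these 3. For JUN, PEO4 did not differ from PEO1 either. For FOSL2 and MAFF the PEO lines did not differ from each other but stood above CP70, the next line. ATF3 ran from PEO1 at 12.4 FPKM ± 1.66 (SD, n = 3) to PEA2 at 5.01 ± 0.610, and CP70 against A2780 was the 1 pair of neighbours that differed.

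**Figure D1:**
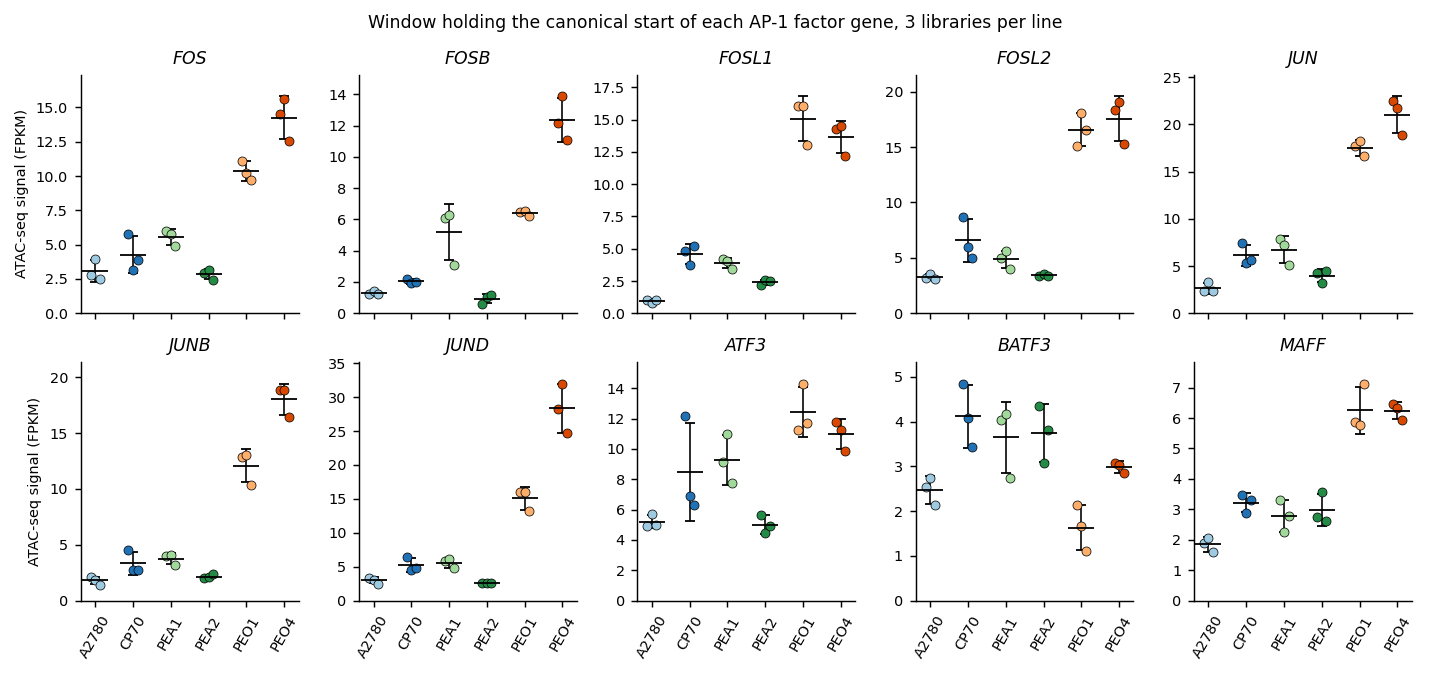
ATAC-seq signal in FPKM at the window holding the canonical start of each of the 10 genes, in 6 lines. Coloured points are the 3 libraries of a line, and bars give the mean ± SD. FOSL1 runs from 0.789 to 1.05 FPKM in A2780 to 13.0 to 16.1 FPKM in PEO1, while BATF3 has its lowest values in PEO1.

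The FOS family came first. FOS, the founding member and a classic immediate early gene, had its start window at chr14:75744900-75745900 over coding sequence and UTR. Its 3 libraries held 2.77, 3.97 and 2.496 FPKM in A2780 and 5.76, 3.17 and 3.89 FPKM in CP70, which overlap. They held 5.96, 5.79 and 4.89 FPKM in PEA1 and 2.91, 3.18 and 2.44 FPKM in PEA2. In PEO1 they held 11.1, 10.2 and 9.70 FPKM and in PEO4 14.5, 15.6 and 12.6 FPKM. All PEA2 libraries lay below all PEA1 libraries, and all PEO4 libraries lay above all PEO1 libraries. FOS fell by 0.94 in PEA2 (log2 scale, SE 0.23, adjusted p = 8.76e-05) and rose by 0.45 in PEO4 (SE 0.11, adjusted p = 0.000651). The log2 difference in CP70 was 0.45 (adjusted p = 0.169), at -0.14 relative to the median of all windows. In the order PEO4, PEO1, PEA1, CP70, A2780, PEA2, PEO1 stood above PEA1 (adjusted p = 0.000136), and no other neighbours in the order differed. PEO4 against PEO1 thus had an adjusted p of 0.0659 in that fit over 18 libraries, where the call in the fit of the pair was not held.

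FOSB encodes a FOS protein that also has a shorter isoform lacking the transactivation domain. Its start window at chr19:45971100-45972100 also lies in an annotated intron of ERCC1, so the signal cannot be assigned to 1 of these genes. PEA1 held 6.12, 6.29 and 3.12 FPKM, and PEA2 held 0.605, 1.04 and 1.15 FPKM, with no overlap. FOSB fell by 2.33 in PEA2 (SE 0.23, adjusted p = 5.99e-22), the 1 member window of this pair past the study's thresholds of a log2 change over 2 in size with an adjusted p under 0.001. Of the 110 member windows tested in the pair, 1 passed these thresholds, against 12.7% of all windows tested. Without PEA1 replicate 3, 3 promoter windows passed, and 2 without PEA2 replicate 2 or replicate 3. The fall was 2.64 below the median of all windows and had a log2 value of -2.40 after GC class removal.

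The fall at FOSB lay in a region where signal was lower in PEA2 over a wide stretch. The 5 Mb bin that holds FOSB had a median of -1.12 on the log2 scale over 296 windows, against 0.31 over all windows, and with bin medians removed the change was -1.21 (adjusted p = 1.16e-05). PEO1 held 6.47, 6.54 and 6.24 FPKM at the FOSB start and PEO4 held 12.2, 13.9 and 11.1 FPKM. FOSB rose by 0.93 in PEO4 (SE 0.12, adjusted p = 2.75e-08), or by 0.54 with bin medians removed. A2780 held 1.20, 1.42 and 1.24 FPKM and CP70 held 2.20, 1.92 and 2.01 FPKM. That difference of 0.63 (adjusted p = 0.0304) was 0.04 relative to the median of all windows and -0.09 with bin medians removed.

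FOSL1 encodes FRA1, a FOS protein known for its link to mesenchymal states and invasion. Its start window at chr11:65667600-65668600 holds an AP-1 site 2 bases from the start, shown above. A2780 held 1.05, 0.789 and 0.992 FPKM, and CP70 held 4.85, 3.71 and 5.23 FPKM. The lowest CP70 library was thus far above the highest A2780 library. FOSL1 rose by 2.17 in CP70 (SE 0.26, adjusted p = 1.71e-14), and it was the 1 of 94 member windows tested that passed the study's thresholds in this pair, against 0.797% of all windows tested. These values rest on 35 to 60 reads per A2780 library and 62 to 125 per CP70 library.

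The rise at the FOSL1 start kept its sign under each scaling tried, at 1.59 after median centring, 1.29 with bin medians removed (adjusted p = 6.25e-05) and 1.52 with GC class medians removed. Each of these was below the study's fold threshold. PEA1 held 4.20, 4.08 and 3.45 FPKM and PEA2 held 2.20, 2.54 and 2.48 FPKM, a fall of 0.67 (adjusted p = 0.00595) that was -0.17 (adjusted p = 0.302) with bin medians removed. PEO1 held 16.1, 16.1 and 13.0 FPKM and PEO4 held 14.2, 14.5 and 12.2 FPKM. The PEO libraries overlapped, with a difference of -0.14 (adjusted p = 0.272) that was 0.20 after median centring and -0.44 with bin medians removed.

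FOSL2 encodes FRA2, and its start window at chr2:28615500-28616500 holds an AP-1 site 7 bases from the start. A2780 held 3.16, 3.54 and 3.09 FPKM and CP70 held 8.71, 5.99 and 5.03 FPKM, a rise of 0.95 (SE 0.30, adjusted p = 0.0069) that was 0.33 (adjusted p = 0.0944) with bin medians removed. PEA1 held 4.998, 5.58 and 4.03 FPKM and PEA2 held 3.41, 3.53 and 3.33 FPKM, a difference of -0.48 that missed the threshold (adjusted p = 0.0511). FOSL2 did pass as lower in PEA2 after median centring and with bin medians or GC class medians removed. PEO1 held 15.1, 18.1 and 16.5 FPKM and PEO4 held 18.3, 19.1 and 15.3 FPKM. The PEO lines overlapped here, with a difference of 0.08 (adjusted p = 0.498).

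The JUN family followed. JUN, the main transactivating partner of FOS proteins, had its start window at chr1:59248800-59249800. A2780 held 2.32, 3.29 and 2.33 FPKM and CP70 held 7.42, 5.33 and 5.70 FPKM. PEA1 held 7.85, 7.26 and 5.13 FPKM and PEA2 held 4.23, 3.24 and 4.53 FPKM. PEO1 held 17.7, 18.2 and 16.6 FPKM and PEO4 held 22.5, 21.8 and 18.8 FPKM. In all 3 pairs the libraries of the lines did not overlap. JUN rose by 1.19 in CP70 (SE 0.29, adjusted p = 0.000564), which was 0.66 (adjusted p = 0.002) with bin medians removed. It fell by 0.73 in PEA2 (adjusted p = 0.00279), a call lost without PEA1 replicate 1 (adjusted p = 0.056). It rose by 0.26 in PEO4 (adjusted p = 0.0214), and this call was lost without PEO1 replicate 3 (0.0851), PEO4 replicate 1 (0.134) or PEO4 replicate 2 (0.0601) and with GC class medians removed (0.0992). In the fit over 18 libraries PEO4 against PEO1 had an adjusted p of 0.308.

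JUNB, which often acts as a weaker activator than JUN, had its start window at chr19:12901500-12902500. A2780 held 2.11, 1.87 and 1.44 FPKM and CP70 held 4.55, 2.75 and 2.76 FPKM. PEA1 held 3.97, 4.08 and 3.21 FPKM and PEA2 held 2.03, 2.08 and 2.35 FPKM. PEO1 held 12.8, 13.0 and 10.4 FPKM and PEO4 held 18.8, 18.9 and 16.4 FPKM. Again no pair overlapped. JUNB rose by 0.83 in CP70 (adjusted p = 0.00744), fell by 0.77 in PEA2 (adjusted p = 0.00167) and rose by 0.58 in PEO4 (adjusted p = 1.79e-05). With bin medians removed these changes were 0.13, -0.44 and 0.18, and the adjusted p-values were 0.668, 0.0111 and 0.0993.

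JUND is the JUN gene with the most constant expression in many cells. Its start window at chr19:18391500-18392500 held 5.77, 6.20 and 4.75 FPKM in PEA1 and 2.64, 2.66 and 2.57 FPKM in PEA2. It held 16.1, 16.1 and 13.2 FPKM in PEO1 and 28.3, 32.0 and 24.8 FPKM in PEO4, the highest start value of any member in any line. JUND fell by 1.05 in PEA2 (SE 0.23, adjusted p = 1.15e-05) and rose by 0.90 in PEO4 (SE 0.11, adjusted p = 1.78e-09), and with bin medians removed the changes were -0.90 and 0.50. A2780 held 3.35, 3.09 and 2.48 FPKM and CP70 held 6.44, 4.55 and 4.77 FPKM. That rise of 0.80 (adjusted p = 0.0193) was 0.21 relative to the median of all windows and -0.07 with bin medians removed.

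ATF3 and BATF3 lie in 1 bin of chromosome 1. ATF3, a stress-induced factor that represses or activates with its partner, had its start window at chr1:212781600-212782600. PEA1 held 9.13, 10.997 and 7.72 FPKM and PEA2 held 5.66, 4.45 and 4.93 FPKM, a fall of 0.87 (adjusted p = 0.000436) that was -1.20 with bin medians removed. A2780 held 4.90, 5.72 and 5.01 FPKM and CP70 held 12.2, 6.88 and 6.32 FPKM. The CP70 libraries were all above A2780 but spread widely, and the difference of 0.63 missed the threshold (adjusted p = 0.0862). PEO1 held 11.2, 14.3 and 11.7 FPKM and PEO4 held 11.8, 11.3 and 9.86 FPKM, which overlapped (adjusted p = 0.196).

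BATF3, a JUN partner known from dendritic cells and lymphoid cancers, had its start window at chr1:212872500-212873500. PEO1 held 2.12, 1.66 and 1.11 FPKM and PEO4 held 3.08, 3.02 and 2.84 FPKM, and BATF3 rose by 0.87 in PEO4 (SE 0.22, adjusted p = 0.000661). PEA1 held 4.04, 4.17 and 2.73 FPKM and PEA2 held 4.34, 3.06 and 3.82 FPKM, which overlapped with a difference of 0.05 (adjusted p = 0.873). A2780 held 2.53, 2.75 and 2.13 FPKM and CP70 held 4.85, 4.07 and 3.43 FPKM, a rise of 0.71 (adjusted p = 0.029). In the order of lines PEO1 stood below A2780 (adjusted p = 0.00862), and no other neighbours differed.

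MAFF encodes a small MAF protein without a transactivation domain. Its start window at chr22:38597400-38598400 lies over MAFF UTR and a PLA2G6 intron and holds the CRE shown above. A2780 held 1.88, 2.07 and 1.59 FPKM and CP70 held 3.48, 2.87 and 3.31 FPKM, a rise of 0.77 (adjusted p = 0.0129). PEA1 held 3.30, 2.24 and 2.78 FPKM and PEA2 held 2.75, 3.58 and 2.62 FPKM, while PEO1 held 5.87, 5.76 and 7.13 FPKM and PEO4 held 6.45, 6.34 and 5.93 FPKM. Neither of these pairs was separated, with differences of 0.10 (adjusted p = 0.705) and 0.00 (adjusted p = 0.989). MAFF in CP70 was 0.07 with bin medians removed.

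Read across the genes on the deposited scale, most start windows were higher in CP70 and in PEO4 and most were lower in PEA2. In CP70, 8 of 10 were higher at an adjusted p under 0.05, where 45% of all promoter windows were higher. The 8 fell to 2, FOSL1 and JUN, after median centring, where 5.58% of promoter windows were higher and 8.21% lower, and also with bin medians (5%) or GC class medians removed (5.95%). Under these scalings FOS turned negative in each, FOSB and JUND turned negative with bin medians removed, and ATF3 turned negative with GC class medians removed. Without A2780 replicate 3, adjusted p-values of 0.0599 to 0.159 left BATF3, FOSB, FOSL2, JUNB, JUND and MAFF uncalled. Without A2780 replicate 1 the same held for BATF3, FOSB, FOSL2, JUND and MAFF (0.0541 to 0.0997), without A2780 replicate 2 for BATF3 (0.0510) and FOSB (0.0568), without CP70 replicate 2 for BATF3 (0.0626) and without CP70 replicate 3 for FOSB (0.0519).

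In PEA2, 7 of 10 start windows were lower at an adjusted p under 0.05 (FOS, FOSB, FOSL1, JUN, JUNB, JUND and ATF3), where 33.5% of all promoter windows were lower and 19.7% higher. The count was 9 after median centring (58.7% of promoter windows), 7 with bin medians removed (44.7%) and 8 with GC class medians removed (43.4%), and BATF3 turned from lower to higher between these settings. In all 3 alternatives FOS, FOSB, FOSL2, JUN, JUNB, JUND and ATF3 were among the lower ones, although FOSL2 did not pass on the deposited scale. FOSL1 was not among them with bin medians removed. Start windows of 3 of 3 mesenchymal markers were also lower in PEA2, with VIM at -2.58, ZEB1 at -1.30 and CDH2 at -0.90 on the log2 scale. Their summed level ran from 16.2 to 22.4 FPKM in PEA1 and from 5.32 to 6.87 FPKM in PEA2, and their part in the AP-1 values was not tested. Of 6 epithelial markers in PEA2, CDH1, WT1 and EPCAM were higher, KRT8 and KRT18 lower, and PAX8 at -0.45 (adjusted p = 0.0728).

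In PEO4, 6 of 10 start windows were higher (FOS, FOSB, JUN, JUNB, JUND and BATF3), where 24.9% of all promoter windows were higher and 32.3% lower. The count was 8 after median centring (48.2%), 5 with bin medians removed (32.4%) and 5 with GC class medians removed (31.3%). FOS, FOSB, JUND and BATF3 were higher in each of these. FOSL1 turned from higher to lower between the settings, as did ATF3, FOSL2 and MAFF, and none of these 4 genes passed on the deposited scale. FOSL1 passed as lower with bin medians or GC class medians removed, and ATF3 passed as lower with GC class medians removed. Of 3 mesenchymal markers in PEO4, VIM was at 0.89 and ZEB1 at 0.54 on the log2 scale, both higher, and CDH2 was lower at -0.63. Their summed level ran from 9.00 to 12.5 FPKM in PEO1 and from 11.2 to 12.5 FPKM in PEO4, and their part in the AP-1 values was not tested.

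**Figure D2:**
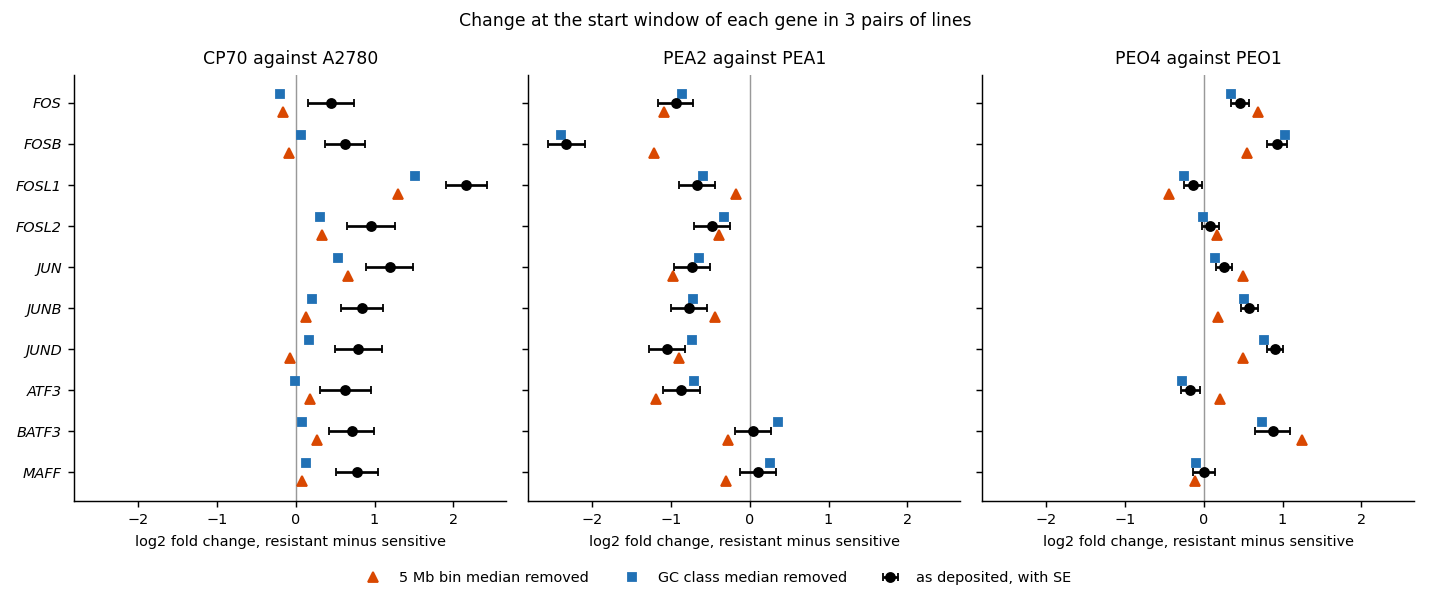
Log2 fold change of the resistant against the sensitive line at the start window of each gene, in 3 panels, 1 per pair. Black points with bars give the change ± SE on the deposited scale, triangles the change with 5 Mb bin medians removed and squares the change with GC class medians removed. FOSL1 stands at 2.17 in CP70 and FOSB at -2.33 in PEA2.

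The effects of 2 pairs on a gene were compared directly by the difference of their log2 changes. At FOSB the PEA change was 3.26 lower than the PEO change and 2.96 lower than the A2780 change. JUND differed by 1.95 between PEA and PEO and FOS by 1.40, both lower in PEA. Of the member windows, 82 of 108 differed between the PEA and A2780 pairs (55.7% of all windows), 87 of 120 between PEA and PEO (68.1%) and 49 of 115 between PEO and A2780 (48.1%), all at an adjusted p under 0.05.

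Rank within a library does not depend on the library total. Each start window was therefore placed among the 12696 windows that hold the start of a protein-coding gene. FOSL1 stood at percentile 13.0 in A2780 and 73.4 in CP70 (means of 3 libraries), and FOSB at 78.0 in PEA1 and 6.45 in PEA2. FOSB went from 43.8 in PEO1 to 74.6 in PEO4. JUND went from 85.1 in PEA1 to 50.0 in PEA2 and from 81.6 in PEO1 to 96.9 in PEO4. ATF3 had its highest ranks in A2780, CP70 and PEA1 (95.1 to 98.2) and its lowest in PEO4 (69.4), although its FPKM was highest in PEO1. BATF3 stood at 6.44 in PEO1 and 69.8 in PEA2. MAFF had means between 41.8 and 57.0 in the 6 lines, but its libraries ran from 24.1 to 54.2 in PEA1 and from 49.0 to 72.9 in PEA2.

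**Figure D3:**
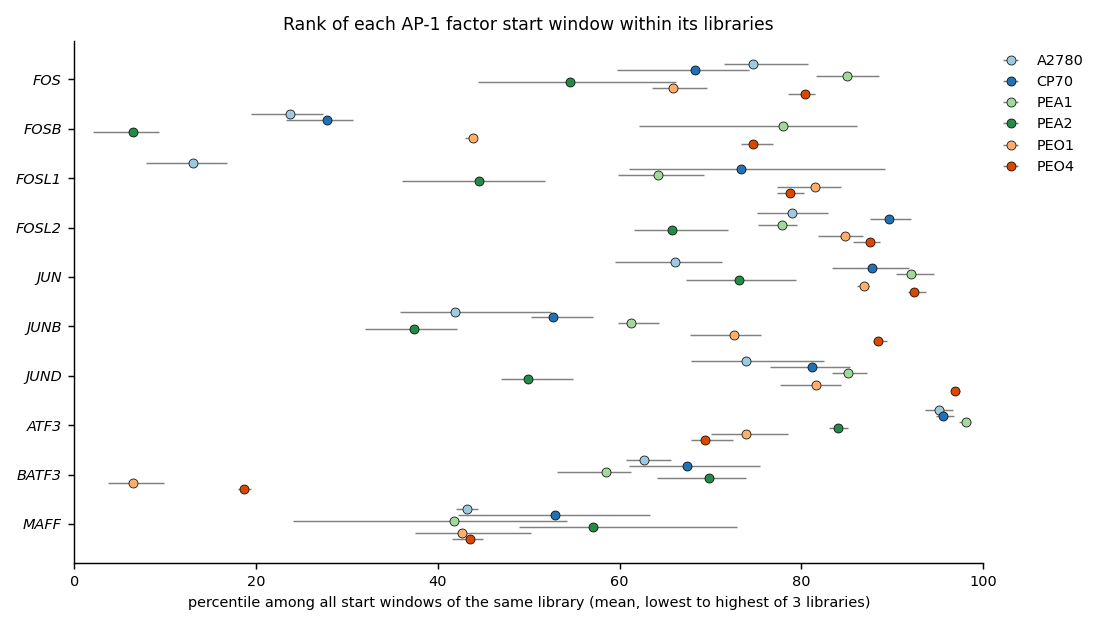
Percentile of each gene's start window among all start windows of the same library, by line. Points are means of 3 libraries and bars run from the lowest to the highest library. The line means of FOSB span 6.45 to 78.0 and those of MAFF 41.8 to 57.0.

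The second question was what the gene bodies and flanks did. A smaller change, a log2 difference over 1 in size at an adjusted p under 0.05, is called changed here. Over all member windows, 28 of 94 were changed to higher in CP70 (11.4% of all windows) and 0 to lower (1.1%). In PEA2 10 of 110 were changed to higher (29.7%) and 21 to lower (9.27%), and in PEO4 10 of 114 to higher (9.63%) and 5 to lower (23.6%). Of the 19 promoter windows, 4 were higher in CP70 (9.34% of all promoter windows) and 5 lower in PEA2 (12.4%).

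In CP70, 17 of 59 gene body and flank windows tested were changed to higher, against 13.3% of all windows outside promoters, and 0 to lower by limma (1.54%). At an adjusted p under 0.05 alone, 2 were lower (3.01% of all windows outside promoters). FOSL1 gave 12 of the 17. Across its whole span, promoters of neighbouring genes included, 19 of 22 windows tested were higher by this measure, with a median of 1.30 on the log2 scale. With bin medians removed the median over these 22 was 0.43, and 0 of the 59 gene body and flank windows were changed to higher. Without A2780 replicate 3 the 17 were 10.

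The FOSL1 locus was thus higher in CP70 at its start, its intron and its neighbours. The intronic window at chr11:65666700-65667700, which holds the other AP-1 site shown above, had 0.854, 0.901 and 0.628 FPKM in A2780 and 2.20, 3.35 and 3.27 FPKM in CP70, a rise of 1.75 (SE 0.25, adjusted p = 3.18e-10). With bin medians removed the rise was 0.88 (adjusted p = 0.0123). The 5 Mb bin of FOSL1 had a median of 0.86 over 312 windows in this pair. Copy number was not measured here, and its part in these values was not tested. In PEO4, 2 flank windows of FOSL1 were changed to lower, at -1.09 and -1.23, and 1 to higher, at 1.06.

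**Figure D4:**
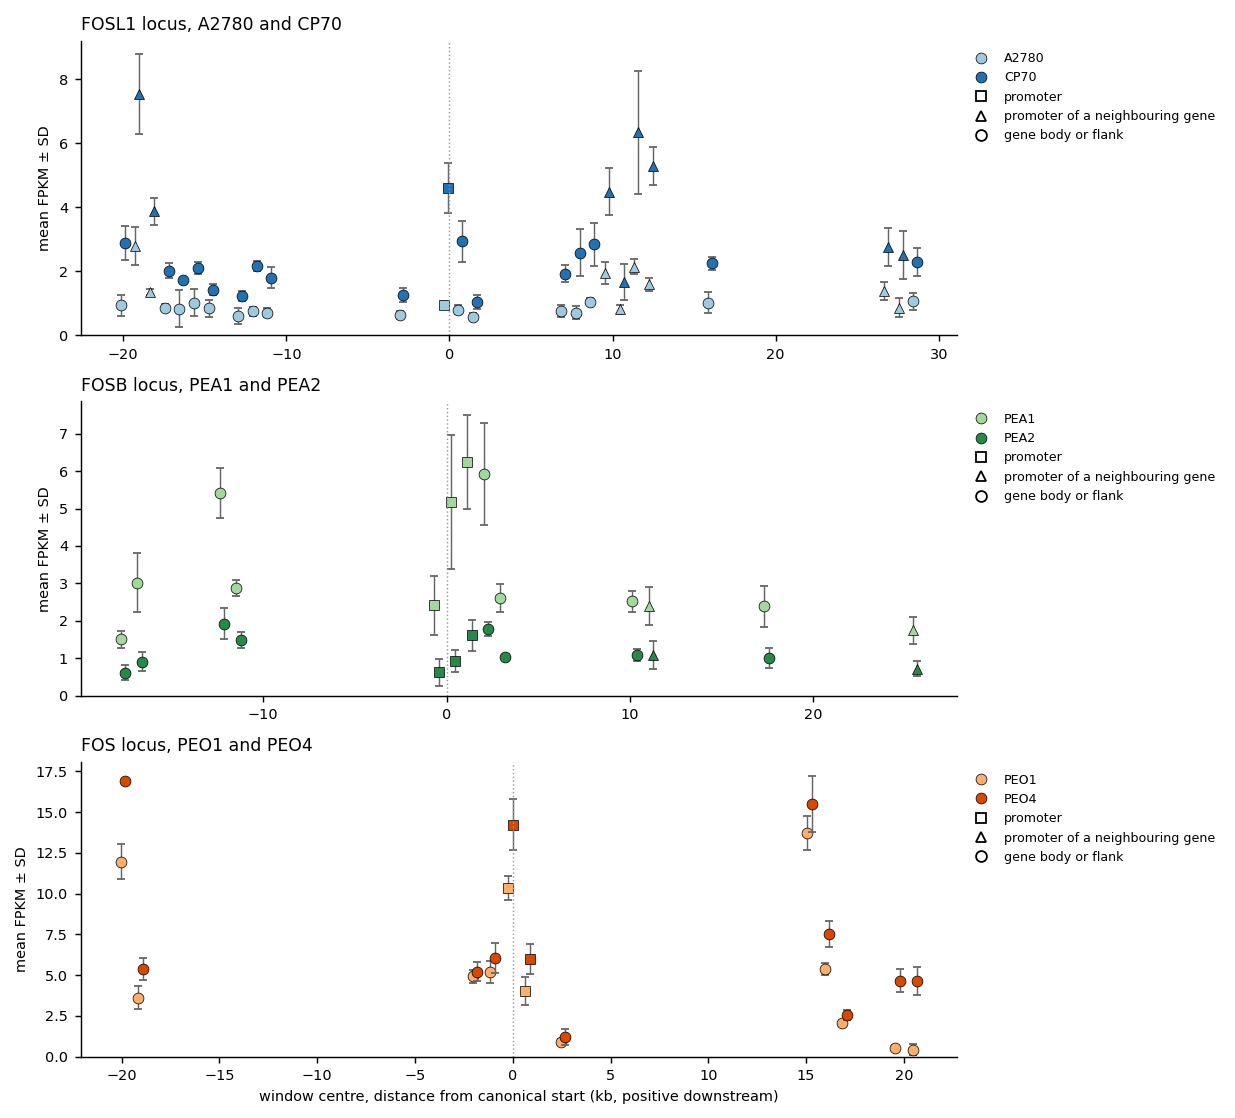
Mean ± SD FPKM of each listed window at 3 loci against the distance of its centre from the canonical start in kb. FOSL1 is shown in A2780 and CP70, FOSB in PEA1 and PEA2, and FOS in PEO1 and PEO4, with squares for promoter windows, triangles for promoters of neighbouring genes and circles for gene bodies and flanks. All FOSB windows are lower in PEA2, and the FOS window 20.6 kb downstream runs from 0.111 to 0.809 FPKM in PEO1 and from 3.72 to 5.42 FPKM in PEO4.

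In PEA2 the gene bodies and flanks of the factors moved apart. Of 76 windows tested, 10 were changed to higher (38.3% of all windows outside promoters) and 14 to lower (8.01%). FOSB gave 7 of the 14. Its gene body window at chr19:45972900-45973900 held 7.27, 5.95 and 4.55 FPKM in PEA1 and 1.76, 1.97 and 1.60 FPKM in PEA2, a fall of 1.66 (SE 0.23, adjusted p = 1.95e-12) that was -0.55 with bin medians removed. The median over the 8 FOSB gene body and flank windows was -1.22 as deposited and -0.10 with bin medians removed.

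JUN, JUNB, JUND and ATF3 also had gene body or flank windows that were changed to lower. JUN had 2 lower and 0 higher, JUNB and JUND each had 2 lower and 1 higher, and ATF3 had 1 lower and 2 higher. JUND at chr19:18390600-18391600 held 4.23, 3.83 and 2.40 FPKM in PEA1 and 1.15, 1.16 and 1.42 FPKM in PEA2, a fall of 1.38 (adjusted p = 1.77e-08) that was -1.23 with bin medians removed. In PEO4 the same window rose by 1.29 (adjusted p = 9.9e-11), from 5.87, 6.72 and 4.79 FPKM to 15.2, 15.7 and 11.96 FPKM. In CP70 it rose by 1.27 (adjusted p = 1.5e-05), but with bin medians removed the difference was 0.40 (adjusted p = 0.105). The PEO4 difference was 0.88 with bin medians removed. ATF3 at chr1:212782500-212783500, in an intron just after the start, fell by 1.16 in PEA2 (adjusted p = 1.15e-06), from 5.70, 5.67 and 4.22 FPKM to 1.87, 2.49 and 2.44 FPKM.

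Windows farther from FOSL2, BATF3 and MAFF rose in PEA2, while their start windows did not pass the test on the deposited scale. A window 44.4 kb downstream of the FOSL2 start (chr2:28659600-28660600, beyond the gene and in no protein-coding transcript) held 0.865, 0.966 and 1.01 FPKM in PEA1 and 3.74, 3.87 and 4.08 FPKM in PEA2. It rose by 1.94 (SE 0.24, adjusted p = 3.14e-15) and by 2.03 with bin medians removed, in a locus whose start was at -0.48. PEO1 held 10.1, 10.0 and 10.0 FPKM there, PEO4 held 11.8, 11.5 and 10.6 FPKM, and A2780 held 0.446 to 0.907 FPKM. The window was thus most open in the PEO lines, at an intermediate level in PEA2, and lowest in PEA1, A2780 and CP70. Of the 7 gene body and flank windows of FOSL2, 2 were higher and 3 lower in PEA2 at an adjusted p under 0.05, with a median of -0.52. By the same rule 52.4% of all windows outside promoters were higher and 16.5% lower.

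BATF3 had its highest flank window at chr1:212844600-212845600, with the AP-1 site shown above. It held 0.929, 0.935 and 0.815 FPKM in PEA1 and 2.97, 2.20 and 3.11 FPKM in PEA2, a rise of 1.51 (SE 0.25, adjusted p = 3.49e-09) that was 1.18 with bin medians and 0.83 with GC class medians removed. Of the 4 gene body and flank windows of BATF3, 3 were changed to higher in PEA2, where 38.3% of all windows outside promoters were. Only 1 of the 4 reached the mean of 1 FPKM needed for a test in the A2780 pair, and 1 in the PEO pair. Any window in the table only through PEA2 had to be higher there, so this count is a description. The median change of the 4 in PEA2 was 1.27, and 0.42 with GC class medians removed. Their mean over the 4 windows was highest in PEA2 (3.06 FPKM) and lowest in CP70 (0.665 FPKM).

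MAFF had a flank window in a TMEM184B intron at chr22:38619000-38620000 that went opposite ways in the HGSOC pairs. PEA1 held 2.27, 2.59 and 1.53 FPKM and PEA2 held 3.63, 4.16 and 3.42 FPKM, a rise of 0.81 (adjusted p = 0.000946). PEO1 held 1.52, 2.62 and 2.12 FPKM and PEO4 held 0.581, 0.384 and 0.548 FPKM, a fall of 1.84 (SE 0.31, adjusted p = 2.81e-06). These changes kept their signs under each scaling tried, and the PEA change was 2.64 higher than the PEO change. Over the 4 MAFF gene body and flank windows PEA2 had the highest mean (2.81 FPKM) and PEO4 the lowest (0.774 FPKM).

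**Figure D5:**
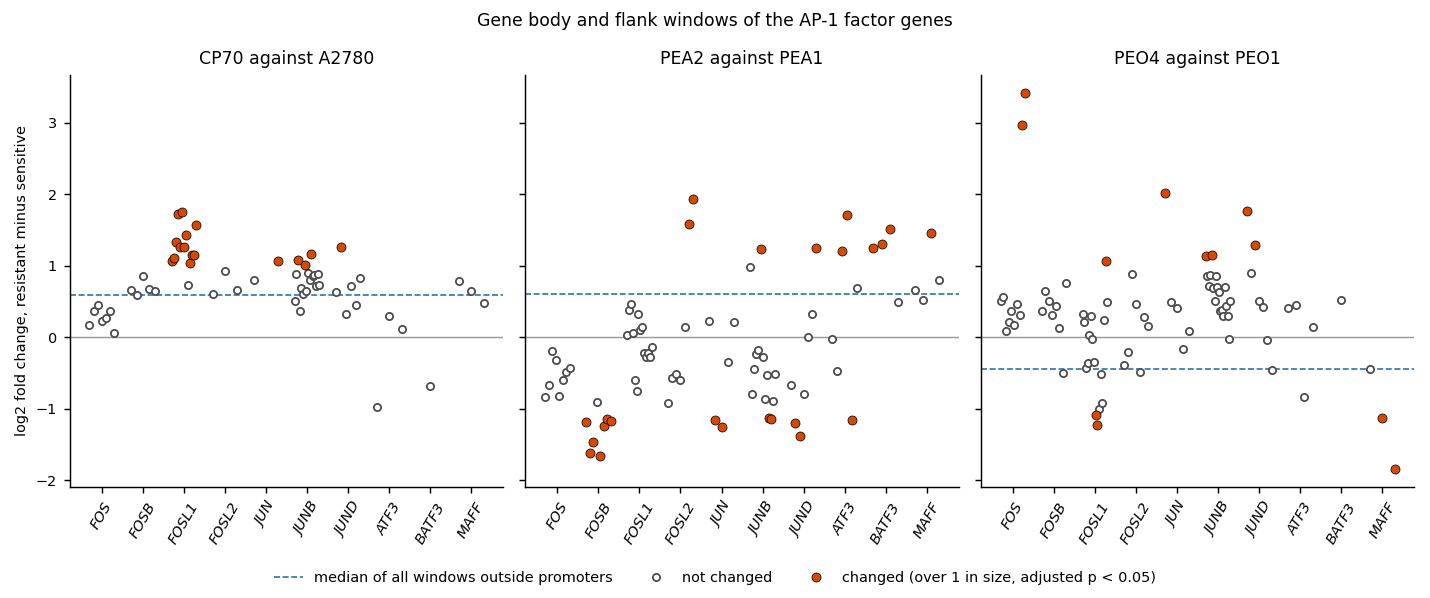
Log2 fold change of each tested gene body or flank window, grouped by gene, in 3 panels, 1 per pair. Filled points are changed (over 1 in size at an adjusted p under 0.05), and the dashed line is the median of all windows outside promoters. FOSL1 carries 12 of the 17 changed windows in CP70, FOSB 7 of the 14 lower ones in PEA2, and FOS the largest values, 2.97 and 3.41, in PEO4, at windows in the table only through PEO4.

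In PEO4, 3 of 114 member windows tested passed the study's thresholds, against 8.49% of all windows tested, and all were higher (2.72% of all windows). Of the 3, 2 are FOS flank windows above 2 FPKM in PEO4 libraries alone, so they are in the table only through PEO4 and had to differ. The third lay within the JUN span, and 0 of 19 promoter windows passed these thresholds by limma (1.28% of all promoter windows). At an adjusted p under 0.05 alone, 11 of the 19 were higher (24.9% of all promoter windows). By the smaller change, 8 of 79 gene body and flank windows were higher (11.1% of all windows outside promoters) and 4 lower (28.9%), which were 2 without PEO4 replicate 1. The FOS window at chr14:75765600-75766600, about 20.6 kb downstream of the start and in no protein-coding transcript, held 0.809, 0.349 and 0.111 FPKM in PEO1 and 3.72, 5.42 and 4.83 FPKM in PEO4. Its reads were 8, 4 and 1 in PEO1 and 64, 113 and 97 in PEO4. The log2 difference was 3.41, and 3.65 with bin medians removed. The neighbouring window 0.9 kb upstream, which shares 100 bp with it, was at 2.97. Both differences are given as a description, with no test, because PEO4 alone put these windows in the table.

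The same FOS window was low in the other lines, at most 0.488 FPKM in A2780, 0.419 in CP70, 0.449 in PEA1 and 1.06 in PEA2. The flank window of FOS with the most signal, at chr14:75760200-75761200 and 15.2 kb downstream, held 14.8, 12.7 and 13.7 FPKM in PEO1 and 16.9, 16.1 and 13.6 FPKM in PEO4. Those libraries overlapped, with a difference of 0.17 (adjusted p = 0.158). It fell by 0.59 in PEA2 (adjusted p = 0.016), from 6.28, 6.14 and 4.603 FPKM to 4.12, 3.35 and 3.64 FPKM.

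The JUN window at chr1:59245200-59246200 lies within the annotated span of the gene but in no protein-coding transcript, and holds the AP-1 site shown above. PEO1 held 0.506, 0.873 and 0.780 FPKM and PEO4 held 3.66, 3.41 and 2.49 FPKM, a rise of 2.01 (SE 0.26, adjusted p = 1.42e-08). With bin medians removed it was 2.25. PEA1 held 1.79, 2.46 and 1.49 FPKM and PEA2 held 2.31, 1.79 and 2.57 FPKM, which overlapped with a difference of 0.22 (adjusted p = 0.416), but the value was -1.16 with GC class medians removed. The window nearer the JUN promoter, at chr1:59250600-59251600, was 0.14 above the median of all windows in PEO4, at -0.17 as deposited (adjusted p = 0.241).

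The JUNB window at chr19:12900600-12901600, with the CArG box shown above, had the highest mean over 18 libraries of any gene body or flank window of the factors, 11.4 FPKM. PEO1 held 25.8, 22.9 and 22.5 FPKM and PEO4 held 30.6, 30.9 and 26.4 FPKM, against 2.10 to 6.21 FPKM in the other lines. The rise in PEO4 was 0.30 (adjusted p = 0.00516) and -0.10 with bin medians removed. Over its 18 gene body and flank windows the mean was 10.6 FPKM in PEO4, 7.15 in PEO1, 1.83 in PEA1, 1.37 in PEA2, 1.99 in CP70 and 1.099 in A2780.

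Other genes of the network were described by their start windows. Of 12 other bZIP partners, 9 had a start window in the table and 3 (BATF, BATF2 and CREB5) were not analysed here. In PEA2 the median log2 change of the 9 was -0.33. In the other pairs their log2 changes ran from -0.24 to 0.93 (CP70) and from -0.24 to 0.70 (PEO4). MAF, a large MAF protein, rose in PEA2 from 0.723 to 5.74 FPKM (log2 change 2.87, SE 0.24). MAFG, a small MAF protein like MAFF, fell from 5.02 to 2.08 FPKM (-1.22). With bin medians removed the changes were 1.59 and -0.73.

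Of 12 upstream kinases and factors, 11 were tested in each pair, and MAPK10 was not analysed here. MAP2K7, a kinase that activates JNK, fell in PEA2 from 3.10 to 1.40 FPKM (-1.11, adjusted p = 6.94e-06). SRF, which binds the CArG box, rose in PEO4 from 7.47 to 19.98 FPKM (1.40, adjusted p = 1.56e-13), but by 0.26 with bin medians removed. In CP70 the log2 changes of the 11 ran from 0.34 to 0.98, with a median of 0.76.

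Of 17 known AP-1 targets, 14 had a start window in the table, and MMP1, MMP3 and MMP9 were not analysed here. In CP70, 2 of 10 tested were changed to higher, TIMP1 (0.913 to 2.59 FPKM, 1.39) and LIF (0.783 to 2.40 FPKM, 1.49). In PEA2, 1 of 13 was higher, LIF (0.467 to 2.21 FPKM, 2.15), and 1 lower, VEGFA (6.34 to 2.60 FPKM, -1.26). The LIF window is in the table only through CP70 and PEA2 libraries. Its rises in CP70 and PEA2 are therefore a description and not a test. In PEO4, 2 of 13 were higher, VEGFA (4.13 to 12.7 FPKM, 1.59) and the early growth response gene EGR1 (10.9 to 24.4 FPKM, 1.15), and 1 lower, CXCL8 (2.11 to 0.216 FPKM, -2.93). The CXCL8 window is in the table only through PEO1 libraries and had to be high there. Its fall in PEO4 is therefore a description and not a test. Among all promoter windows of the CP70 comparison, 9.34% were changed to higher and 0.612% to lower. For PEA2 these shares were 8.59% and 12.4%, and for PEO4 they were 5.48% and 8.52%. All 7 of these changes kept their signs under each scaling tried, but with bin medians removed VEGFA was at 0.45 in PEO4 and -0.81 in PEA2, TIMP1 at 0.60 and LIF at 0.70 in CP70, all under 1 in size.

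The start windows whose levels followed FOSL1 most closely over the 18 libraries were those of MICAL1, CHCHD5 and ZC2HC1C, each with a Pearson r of 0.98 on the log2 scale. Such values were common, since 16.7% of the other 12695 start windows had an r above 0.9. The points share library, depth and line, so no test was made.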

How the data were processed

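The data are 18 ATAC-seq libraries from 6 lines. The authors removed duplicates with Picard, aligned uniquely with Bowtie2, removed blacklisted and mitochondrial reads, counted reads with featureCounts and made FPKM with edgeR. Versions and any Tn5 shift are not given in the sources used here. The deposited FPKM table covers windows of 1000 bp every 900 bp that exceed 2 FPKM in at least 2 libraries, 2.6% of the grid. Its columns matched the 18 labels. In 18 of 18 libraries, 100% of values were whole multiples of 1 read (tolerance 0.01), which gave library totals of 8963079 to 60435027 reads. FPKM divides by those totals, so a library with more reads outside windows has lower values.

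Lines of each pair were compared with limma 3.58.1 (R 4.3.3) on log2(FPKM + 0.1), which understates changes of low windows, with trended variance, 1 fit per pair, all windows with a mean above 1 FPKM, and Benjamini-Hochberg adjustment over all windows tested. All adjusted p-values are from limma. Line order came from 1 fit over 18 libraries. Differences between pairs came from separate fits, each over the libraries of both pairs compared. The study used voom on counts. Genes were taken from GENCODE release 44.

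Windows named for each gene are its start window, its gene body or flank window with the highest mean over 18 libraries, and up to 3 windows per pair and direction past the study's thresholds without overlap of libraries, neighbours skipped. Members and lists were chosen with earlier results of these data known. Chosen after seeing values were the promoter class, the count at an adjusted p under 0.05, and the other windows of FOS and FOSL1 that are named. A gene of the partner list and a promoter stretch are not reported here. Alternatives changed the pseudocount, filters, scaling, spans and libraries. The fits were tested on simulated data. Replicates of a line were compared before averaging, and none counted as 1 library deposited again.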

Additional observations from a re-analysis of the deposited data

Results flagged for a closer look

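These results were selected because the change of 1 pair differed from that of another at an adjusted p under 0.05. The difference itself was tested in a limma fit over the libraries of both pairs alone. Those listed also passed with 1 sign after each of the 3 other scalings, a restriction added after the data were seen. Of the 10 start windows and 12 other named windows, 8 and 7 are listed for PEA minus A2780, 6 and 8 for PEA minus PEO, and 1 and 4 for PEO minus A2780. The share of all windows that pass this rule was not counted, so these counts do not set the factors apart. On the deposited scale alone 55.7%, 68.1% and 48.1% of all windows tested differed, in that order. The 8 for PEA minus PEO and the 4 for PEO minus A2780 include the FOS flank window 20.6 kb downstream. That window is in the table only through PEO4 and had to differ, so its differences are a description and not a test. All values are differences of log2 changes, resistant against sensitive, on the deposited scale unless a scaling is named. Their sizes differ under the other scalings.

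In the PEA pair, start windows of the FOS family had lower changes than in the A2780 pair, by -1.39 for FOS, -2.96 for FOSB, -2.84 for FOSL1 and -1.44 for FOSL2. The JUN family differed the same way, by -1.92 for JUN, -1.60 for JUNB and -1.85 for JUND, as did ATF3 by -1.50. With bin medians removed the FOS family was at -0.84 (FOS), -1.20 (FOSB), -1.49 (FOSL1) and -0.72 (FOSL2). The others were then at -1.54 (JUN), -0.60 (JUNB), -0.96 (JUND) and -1.88 (ATF3). Outside promoters the deposited differences were -2.53 for the FOSB gene body window, -2.50 for the FOSL1 intron and -1.41 for the JUN flank window 1.4 kb upstream. They were -2.65 for the JUND gene body window and -1.46 for the ATF3 intron. With bin medians removed the values were -0.77, -1.16, -1.03, -1.76 and -1.84, in that order. The flank windows of FOSL2 and BATF3 differed in the other direction, by 1.22 and 1.48. In the A2780 pair alone both were under the mean of 1 FPKM needed for a test.

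Against the PEO pair, the PEA changes were lower at the starts of FOS by -1.40, FOSB by -3.26, JUN by -0.99, JUNB by -1.35, JUND by -1.95 and ATF3 by -0.70. Outside promoters they differed by -0.77 at the FOS flank window 15.2 kb downstream, -2.41 at the one 20.6 kb downstream (in the table only through PEO4), -2.11 at the FOSB gene body window and -1.79 at the JUN window with an AP-1 site. The JUND gene body window differed by -2.67 and the ATF3 intron by -1.30. FOSL2 and MAFF flank windows differed by 1.77 and 2.64.

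Between the PEO and A2780 pairs, FOSL1 had the lower change in PEO4 at its start by -2.31 and in its intron by -1.78. The FOS flank window 20.6 kb downstream, which is in the table only through PEO4 and so had to differ, was at 3.22, the JUN window with an AP-1 site differed by 3.14 and the MAFF flank window by -2.31. In the A2780 pair alone the JUN window was under the mean of 1 FPKM needed for a test. Part of its difference thus comes from low values in A2780 and CP70.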

How the results depend on the processing

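Counts of member windows past the study's thresholds are called counts here, and those over 1 in log2 size at an adjusted p under 0.05 changed counts. With a pseudocount of 1, CP70 called promoters went from 1 to 0, changed promoters from 4 to 2 and changed gene body and flank windows from 17 to 3. In PEA2 called promoters went from 1 to 0, lower promoters from 5 to 3, and gene body and flank windows from 10 to 2 (higher) and 14 to 3 (lower). In PEO4 called windows went from 3 to 1 and lower ones from 4 to 1. A minimum mean of 5 FPKM leaves fewer windows to test, and gave 0 called, 1 changed promoter and 0 other changed windows in CP70, 0 of each in PEA2, and 0 called, 2 higher and 0 lower in PEO4. It also gave 24 windows in place of 119 that differ among lines, and 3, 12 and 31 in place of 82, 49 and 87 that differ between pairs (PEA minus A2780, PEO minus A2780, PEA minus PEO).

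Median centring gave 0 called and 1 changed promoter, 2 higher and 2 lower gene body and flank windows in CP70. In PEA2 it gave 3 called promoters, 1 other called window, 11 lower promoters, and 5 higher and 25 lower other windows. In PEO4 it gave 5 higher promoters, and 18 higher and 1 lower other windows. Removing 5 Mb bin medians gave 0 called and 1 changed promoter, 0 higher and 2 lower other windows in CP70, 0 called promoters, 1 other called window and 5 lower other windows in PEA2, 2 higher promoters and 4 higher other windows in PEO4, and 47 for PEA minus A2780. Removing GC class medians gave 0 called and 1 changed promoter, 2 higher and 2 lower other windows in CP70, 6 higher other windows in PEA2, and 1 higher promoter and 2 lower other windows in PEO4. The upper depth limit gave 0 called and 0 changed promoters in CP70, and 0 called and 2 lower promoters in PEA2. Spans of 5 kb, which hold fewer windows, gave 7 higher windows in CP70, 2 in PEA2, and 1 called, 3 higher and 1 lower in PEO4. Without a filter, 1 window was lower in CP70, and promoters taken within 1 kb on either side gave 8 lower in PEA2. Beyond these constructions the cause was not tested. Taking promoters by window centre alone, an alternative added after the data were seen, moved 0 of 18 counts by over 1.5 times.

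Leaving out 1 library gave CP70 called promoters of 1 to 1, changed promoters of 3 to 6, and gene body and flank windows of 10 to 20 (higher; 10 without A2780 replicate 3) and 0 to 1 (lower; 1 without A2780 replicate 1 or 3 or CP70 replicate 2 or 3). In PEA2 the ranges were 1 to 3 called promoters, 0 to 1 other called (1 without PEA1 replicate 2), 4 to 6 lower promoters, 10 to 11 higher and 11 to 17 lower other windows. In PEO4 they were 2 to 3 called, 0 to 2 higher promoters (2 without PEO1 replicate 1 or PEO4 replicate 3, 1 without PEO4 replicate 1), 8 to 9 higher and 2 to 5 lower other windows. Windows that differ among lines were 116 to 120, start windows with a PEO line highest 9 to 9, and differences between pairs 74 to 87, 36 to 53 and 78 to 91.

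Same-numbered libraries of a pair deviated together with correlations from -0.41 to 0.045. Differently numbered libraries had correlations from -0.38 to 0.43, both ends in the A2780 pair. Deviations from a mean of 3 libraries are tied to each other, so these values do not settle whether libraries were paired. The replicate block moved 0 of 22 counts by over 1.5 times, and with it 7 CP70 start windows were higher at an adjusted p under 0.05 in place of 8 (BATF3 lost). The planned edgeR test on recovered reads is not reported, since the deposited values are FPKM. The median window of the CP70 libraries held 11 to 20 reads.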

Other observations

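Start windows of markers were read for the lines themselves, with no link to the AP-1 values tested. In PEA2 the start window of VIM, a mesenchymal intermediate filament gene, fell by 2.58 on the log2 scale (limma, adjusted p = 2.93e-28). Of 6 epithelial markers in the same comparison 3 rose, CDH1, the epithelial cadherin, by 1.21, WT1 by 1.09 and EPCAM by 0.84. The keratin genes KRT8 and KRT18 fell by 0.68 and 0.83, and PAX8 was at -0.45 (limma, adjusted p = 0.0728). The summed level of 3 mesenchymal markers in A2780 was 5.39 to 7.14 FPKM and in CP70 7.42 to 11.6 FPKM, and it was 9.00 to 12.5 FPKM in the PEO libraries.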
